A study of Rattus norvegicus with 46 samples.

Results

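Quadriceps muscles of diet-induced obese (DIO) rats whose food was restricted until their weight was matched were compared with quadriceps muscles of DIO rats given vehicle. All libraries whose labels name quadriceps and either of those treatments were taken, which gave 15 of the 46 libraries of the series: 8 weight-matched libraries, numbered 25 to 32, and 7 vehicle libraries, numbered 1, 2, 4, 5, 6, 7 and 8. RNA of whole muscle was sequenced in bulk, and reads were counted per gene. The labels give every animal as wild type, and both groups share the diet-induced obesity. The weight-matched group is a food-restriction control for CagriSema, which combines the amylin analog cagrilintide and the GLP-1 receptor agonist semaglutide. A further quadriceps group of 8 CagriSema libraries entered the same fit and is used here only for values set beside the others. The comparison addresses what matched weight loss by food restriction did to muscle RNA in the absence of the drug. Strain, sex and age are not given in the labels, and the treatment time that the design text states for liver was not taken to hold for muscle. Whether every library stands for its own rat is not in the labels, so p-values here measure library-to-library spread, which may be partly technical.

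Library totals ran from 13494568 to 16043459 counts in weight-matched muscle and from 11462369 to 16525274 counts in vehicle muscle, and 3 counts in 1 library came to between 0.183 and 0.255 CPM, a gene's count scaled to the TMM-adjusted total of its library. The tissue label held against its markers: the 11 measured genes of the muscle fibre list summed to 167100 to 232100 CPM in weight-matched libraries and to 132100 to 185900 CPM in vehicle libraries. Vehicle libraries 2 and 5 stood apart, at -43.9 and -40.5 on a second principal component that held 16.8% of the variance, where no other quadriceps library lay below -13.1. Vehicle library 8 lay at the end of the first component, at 39.4, with 22.8% of its counts on mitochondrially encoded genes. The other 14 libraries had 10.96% to 19.0% of their counts there. Results are therefore given with and without vehicle libraries 2 and 5.

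The muscle fibre is wrapped in a basement membrane built of type IV collagen, laminins, nidogens and perlecan, and bundles of fibres are held together by fibrillar collagens made mostly by fibroblasts between them. When food is short, muscle is known to draw less on glucose and more on fat, and glucocorticoid hormones are known to raise enzymes that export nitrogen as glutamine. Fast fibres rely on glycogen and glycolysis, and slow fibres rely on mitochondria and burn fat.

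A majority of tested collagen-list genes (14 of 24) and a minority of other matrix genes (4 of 25) were lower in weight-matched muscle. Higher there were 9 of 27 glycolysis and glycogen genes, 2 of 27 amino acid genes and 2 of 14 glucocorticoid-responsive genes. Glul is counted in both of the last 2 lists. The firmest single differences were those of Col4a1, Col4a2 and Sparc, which fell to 0.541, 0.540 and 0.531 times the vehicle level. At a Benjamini-Hochberg adjusted p of 0.05, the quasi-likelihood F test of edgeR called 285 of 12471 genes (2.29%), 139 higher (1.11%) and 146 lower (1.17%). The count depended on the fit: with the CagriSema libraries left out and the 2 groups fitted alone, edgeR called 7 genes (Col4a1, Col4a2, Sparc, Col6a1, Slc7a2, Cpeb4 and Smyd2), and limma-voom called 53 and DESeq2 698 with all libraries. Most differences were small: 4 genes rose and 19 fell by more than 2-fold. Without vehicle libraries 2 and 5 the test called 19 of 12597 genes (0.151%), 8 higher (0.0635%) and 11 lower (0.0873%), and those 19 were all among the 285. All 285 genes kept their direction in that fit, with log2 fold changes at a median of 82.9% of the size with all libraries. The 285 were picked with all libraries and the smaller fit reuses most of them, so the kept direction is no independent check. At an unadjusted p below 0.05 the counts were 2392 of 12471 genes with all libraries and 1548 of 12597 without those 2. The list counts at that level given below stand against these totals.

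The count of called genes also depended on single libraries. Vehicle library 2 was the vehicle library farthest from the weight-matched mean for 100 of the 285 genes and vehicle library 5 for 96, against 50 for vehicle library 8 and 8 to 12 for each of the others. Left out alone, vehicle library 5 brought the count to 46 and vehicle library 2 to 158, while vehicle library 1 brought it to 645 and vehicle library 6 to 436. Leaving out weight-matched library 25, 26, 28 or 30 gave 111, 120, 105 or 110. A set of 46 genes passed in each of the 15 fits that left out 1 library. The libraries of both groups did not overlap for 48 of 12471 genes (0.385%), 22 higher (0.176%) and 26 lower (0.208%), and 40 of the 285 called genes were of that kind, 17 higher and 23 lower.

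**Figure D1:**
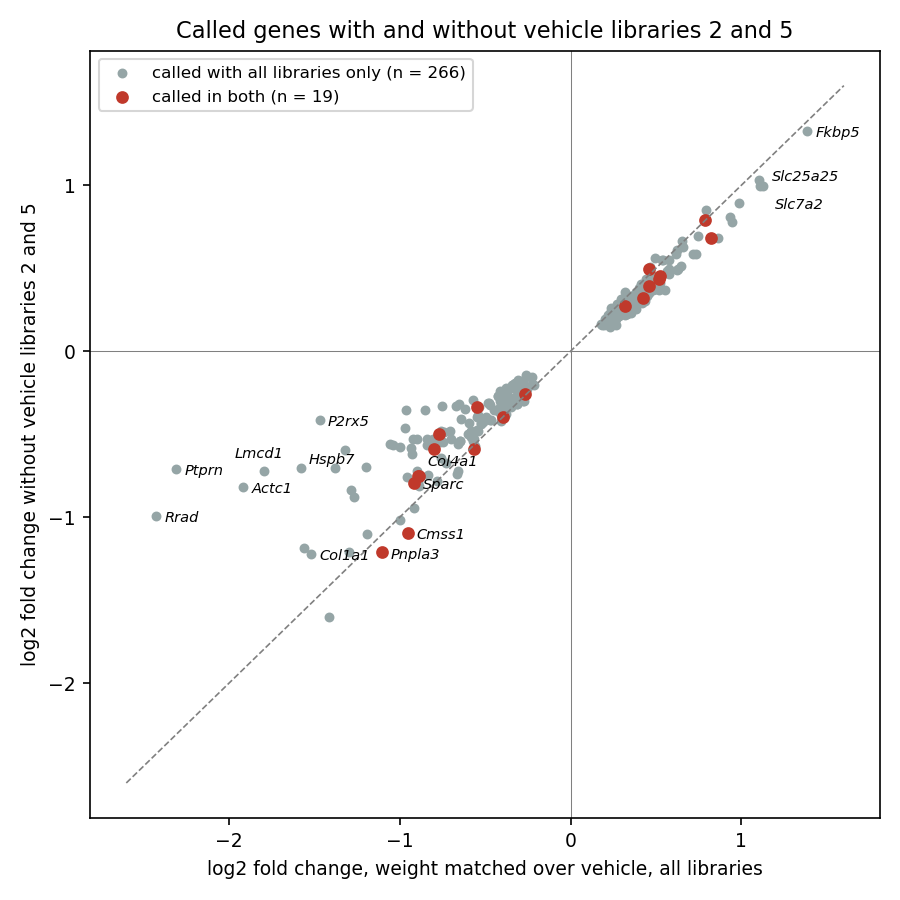
Log2 fold change of weight-matched over vehicle muscle for the 285 called genes, with all libraries (x axis) and without vehicle libraries 2 and 5 (y axis); the dashed line marks equal values and red points are the 19 genes called in both fits. Rrad, Ptprn, Actc1, Lmcd1, Hspb7 and P2rx5 lie far above the line on the lower side, with changes closer to 0 in the smaller fit, while Fkbp5, Slc7a2, Col4a1 and Sparc lie near it.

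Type IV collagen is the network-forming collagen of basement membranes, and its main form is assembled from the chains encoded by Col4a1 and Col4a2. In rat these genes lie head to head: in the RefSeq annotation of build GRCr8 their starts are 77 bases apart on opposite strands of chromosome 16. Their promoter windows, 250 bases before to 50 bases after each start, share 176 bases. They are shown because the genes with the lowest p in the comparison share this stretch. Capitals mark the CCAAT box (CCAAT, or ATTGG on the other strand) and the GC box (GGGCGG, or CCGCCC on the other strand), and no marked letters overlap. Col4a1 lies at chr16:84885347-84885646 on the plus strand and Col4a2 at chr16:84885471-84885770 on the minus strand, each written 5′ to 3′ along its own strand.
Col4a1: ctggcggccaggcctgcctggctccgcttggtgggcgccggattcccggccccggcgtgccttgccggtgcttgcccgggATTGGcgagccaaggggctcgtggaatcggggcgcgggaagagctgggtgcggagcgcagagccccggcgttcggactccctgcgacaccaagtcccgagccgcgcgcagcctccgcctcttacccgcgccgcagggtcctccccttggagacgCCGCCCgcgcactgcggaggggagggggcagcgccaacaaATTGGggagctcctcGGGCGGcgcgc
Col4a2: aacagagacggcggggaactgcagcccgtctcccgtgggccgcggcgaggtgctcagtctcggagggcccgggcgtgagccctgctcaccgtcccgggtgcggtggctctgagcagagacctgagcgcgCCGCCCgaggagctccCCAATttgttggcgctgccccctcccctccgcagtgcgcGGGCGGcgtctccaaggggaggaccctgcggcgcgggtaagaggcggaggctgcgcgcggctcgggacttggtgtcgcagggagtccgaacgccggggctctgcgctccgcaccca
The Col4a1 window held 2 CCAAT boxes and 2 GC boxes, and the Col4a2 window held 1 and 2. Of 27457 promoter windows of that length in the same table, 37.7% held a CCAAT box and 34.9% a GC box on either strand, so both motifs are common. A match is a description of the letters, not evidence of a bound factor.

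Col4a1 (ENSRNOG00000016281) had 44.6, 59.0 and 71.8 CPM as the lowest, median and highest of the weight-matched libraries, against 78.0, 106 and 144 CPM in the vehicle libraries. Every weight-matched library lay below every vehicle library, and the highest vehicle libraries were 5 and 2. Col4a1 averaged 59.6 ± 9.0 CPM in weight-matched muscle (SD, n = 8) and 110 ± 20.5 CPM in vehicle muscle (n = 7), a log2 fold change of -0.89 ± 0.11 (SE, edgeR adjusted p = 0.000128). Col4a2 (ENSRNOG00000023972) had 34.1, 44.4 and 54.1 CPM in weight-matched libraries, against 61.6, 78.1 and 102 CPM in vehicle libraries. Its groups did not overlap either, and its log2 fold change was -0.89 ± 0.11 (adjusted p = 0.000128). Each stood at -0.75 without vehicle libraries 2 and 5, with adjusted p of 0.00203 for Col4a1 and 0.00248 for Col4a2. Both genes were called in each of the 15 fits that left out 1 library.

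Sparc (ENSRNOG00000012840) encodes a secreted protein that binds collagen, type IV included. It had 121, 163 and 223 CPM in weight-matched libraries, against 211, 327 and 421 CPM in vehicle libraries. The groups touched only at their edges, where the highest weight-matched libraries lay above the lowest vehicle library, number 1. Sparc had a log2 fold change of -0.91 ± 0.12 (adjusted p = 0.000238), and -0.79 without vehicle libraries 2 and 5 (adjusted p = 0.0046). In muscle of CagriSema rats, Col4a1 averaged 73.2 ± 7.9 CPM, Col4a2 53.9 ± 7.8 CPM and Sparc 201 ± 16.2 CPM (SD, n = 8). Those CagriSema values lay between the other groups, and each was lower than vehicle (log2 fold change -0.59 ± 0.11, -0.59 ± 0.11 and -0.67 ± 0.12, adjusted p = 0.0391, 0.0397 and 0.0391). That comparison uses the same vehicle libraries, libraries 2 and 5 included, and is no independent repeat. Only 4 of 12471 genes (0.0321%) were called between CagriSema and vehicle.

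**Figure D2:**
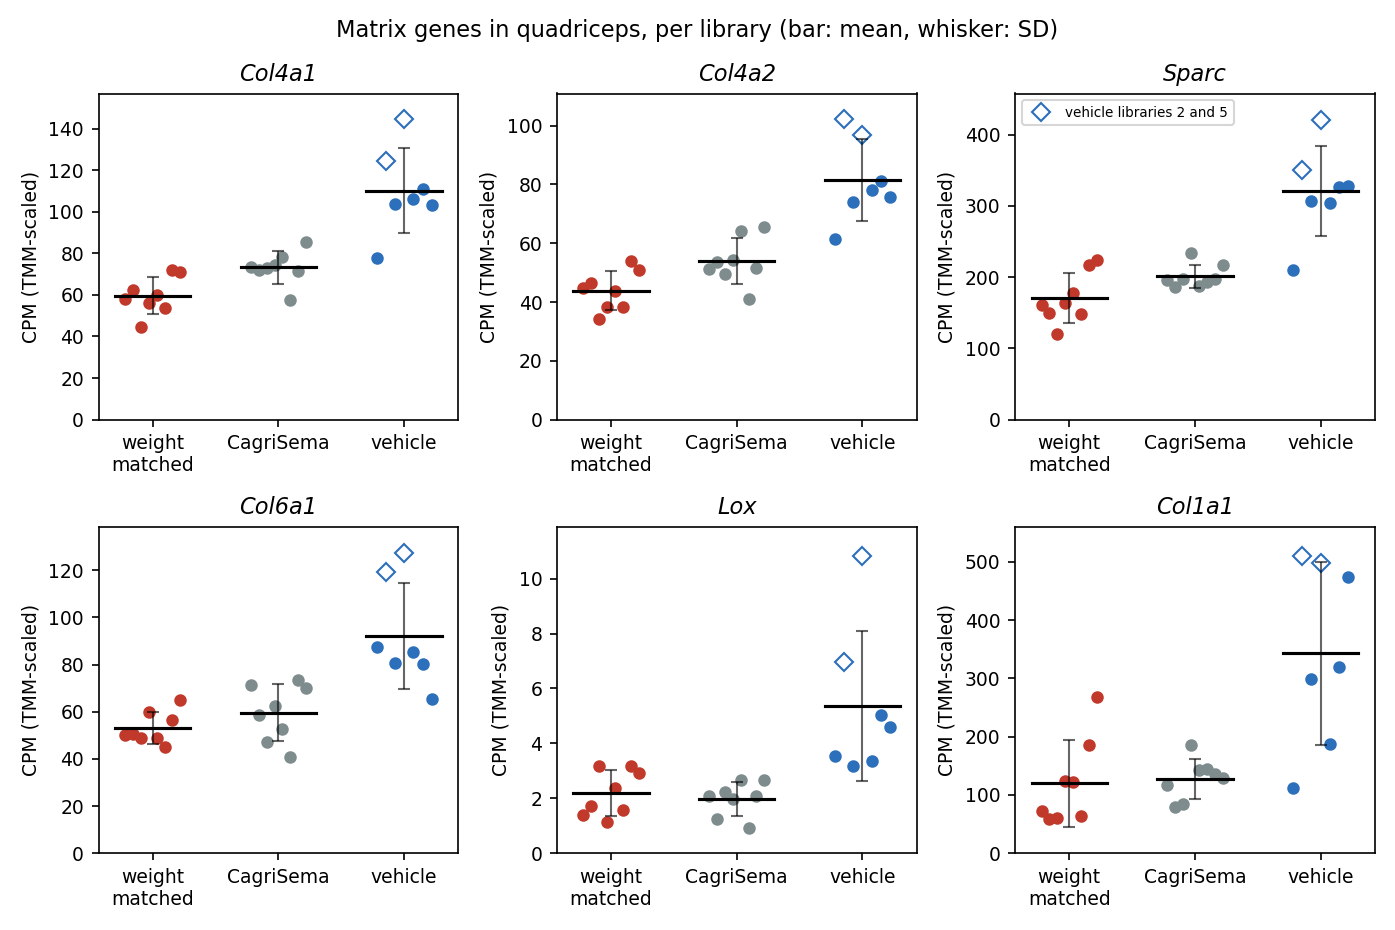
TMM-scaled CPM of 6 matrix genes in each quadriceps library of the weight-matched (left), CagriSema (middle) and vehicle (right) groups; points are libraries, horizontal lines are means, whiskers are SD and open diamonds are vehicle libraries 2 and 5. For Col4a1, Col4a2, Col6a1 and Lox every weight-matched library lies below every vehicle library, and the open diamonds are the highest vehicle libraries in all panels.

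The fall extended over much of the collagen list. Of 24 tested genes for collagen chains and the enzymes that process them, 14 fell and none rose, with a median log2 fold change of -0.82 over the list and -0.01 over all 12471 genes. DESeq2 called 18 of the 24 and limma-voom 6. For 6 of the 24, every weight-matched library lay below every vehicle library, against 26 of all 12471 genes (0.208%). Without vehicle libraries 2 and 5, 3 of the 24 were called lower (Col4a1, Col4a2 and Col6a1) and the list median was -0.51. In edgeR 20 of the 24 had an unadjusted p below 0.05 with all libraries, and 16 without those 2. Over all genes these counts were 2392 of 12471 and 1548 of 12597. Summed over the list, weight-matched libraries held 669 to 1093 CPM, with a median of 845 CPM, and vehicle libraries held 1233 to 2404 CPM, with a median of 1370 CPM. These sums did not overlap. In bulk RNA, fewer cells of a type and less RNA per cell cannot be told apart.

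Col6a1, a chain of the beaded type VI collagen that surrounds muscle fibres, had 45.0, 50.1 and 65.0 CPM in weight-matched libraries, against 65.5, 85.2 and 127 CPM in vehicle libraries. The groups came close at the edge but did not overlap, and vehicle libraries 5 and 2 were highest. Col6a1 had a log2 fold change of -0.80 ± 0.14 (adjusted p = 0.00736), and -0.59 without vehicle libraries 2 and 5 (adjusted p = 0.0457). Its partner chain Col6a2 averaged 58.5 ± 7.4 CPM in weight-matched muscle and 95.3 ± 25.8 CPM in vehicle muscle (log2 fold change -0.70 ± 0.14, adjusted p = 0.0136), and missed the threshold without vehicle libraries 2 and 5 (-0.48, adjusted p = 0.0957). Col15a1 and Col18a1, which encode collagens of basement membrane zones, changed by -0.83 ± 0.15 (adjusted p = 0.00975) and -0.60 ± 0.13 (adjusted p = 0.0201). Without those libraries their changes were -0.75 (adjusted p = 0.0559) and -0.50 (adjusted p = 0.104).

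Among fibrillar collagens, those of types I and III had larger changes and wider spread than Col4a1 and Col4a2. Col1a1, a chain of type I collagen, had 58.9, 97.9 and 269 CPM in weight-matched libraries, against 112, 320 and 510 CPM in vehicle libraries. The groups overlapped: weight-matched libraries 28, 29, 31 and 32 lay above vehicle library 1, at 112 CPM. Col1a1 had a log2 fold change of -1.52 ± 0.35 (adjusted p = 0.0314), with a call in 8 of the 15 fits that left out 1 library, and -1.22 without vehicle libraries 2 and 5 (adjusted p = 0.186). Col3a1, the chain of type III collagen, averaged 186 ± 47.8 CPM in weight-matched muscle and 446 ± 218 CPM in vehicle muscle, a change of -1.27 ± 0.28 (adjusted p = 0.0262). Its values in vehicle ran from a low of 130 CPM in library 8 up to 827 CPM in library 5, and without libraries 2 and 5 the change was -0.88 (adjusted p = 0.185). The 3 chains of type V collagen, Col5a1, Col5a2 and Col5a3, also fell, by 0.84 ± 0.21, 0.76 ± 0.17 and 0.94 ± 0.20 on the log2 scale (adjusted p = 0.0395, 0.0235 and 0.0197). None of the 3 passed without vehicle libraries 2 and 5, at -0.53, -0.49 and -0.59.

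Among processing genes, Lox and Loxl2, which encode lysyl oxidases that cross-link collagen, fell, as did Pcolce, which encodes an enhancer of procollagen cleavage. Lox had 1.14, 2.06 and 3.17 CPM in weight-matched libraries, against 3.19, 4.60 and 10.8 CPM in vehicle libraries. The groups met at their edge without overlapping, and the highest values were those of vehicle libraries 5 and 2. Lox had a log2 fold change of -1.29 ± 0.27 (adjusted p = 0.0171), and -0.84 without those libraries (adjusted p = 0.149). Loxl2 stood at -1.20 ± 0.25 and Pcolce at -0.84 ± 0.18 (adjusted p = 0.0171 each), and at -0.70 and -0.56 without them (adjusted p = 0.145 and 0.142). The prolyl and lysyl hydroxylases, which modify collagen chains inside the cell, were not called: P4ha1 had a log2 fold change of 0.07 ± 0.15, P4ha2 of -0.14 ± 0.11, Plod1 of -0.12 ± 0.08 and Plod2 of -0.44 ± 0.17. Of the 14 called collagen-list genes 9 had a promoter in the RefSeq table, of which 6 held a GC box and 3 a CCAAT box. Over all 27457 windows the shares were 34.9% and 37.7%. Col4a1 and Col4a2, whose windows share 176 bases, are both among the 9.

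**Figure D3:**
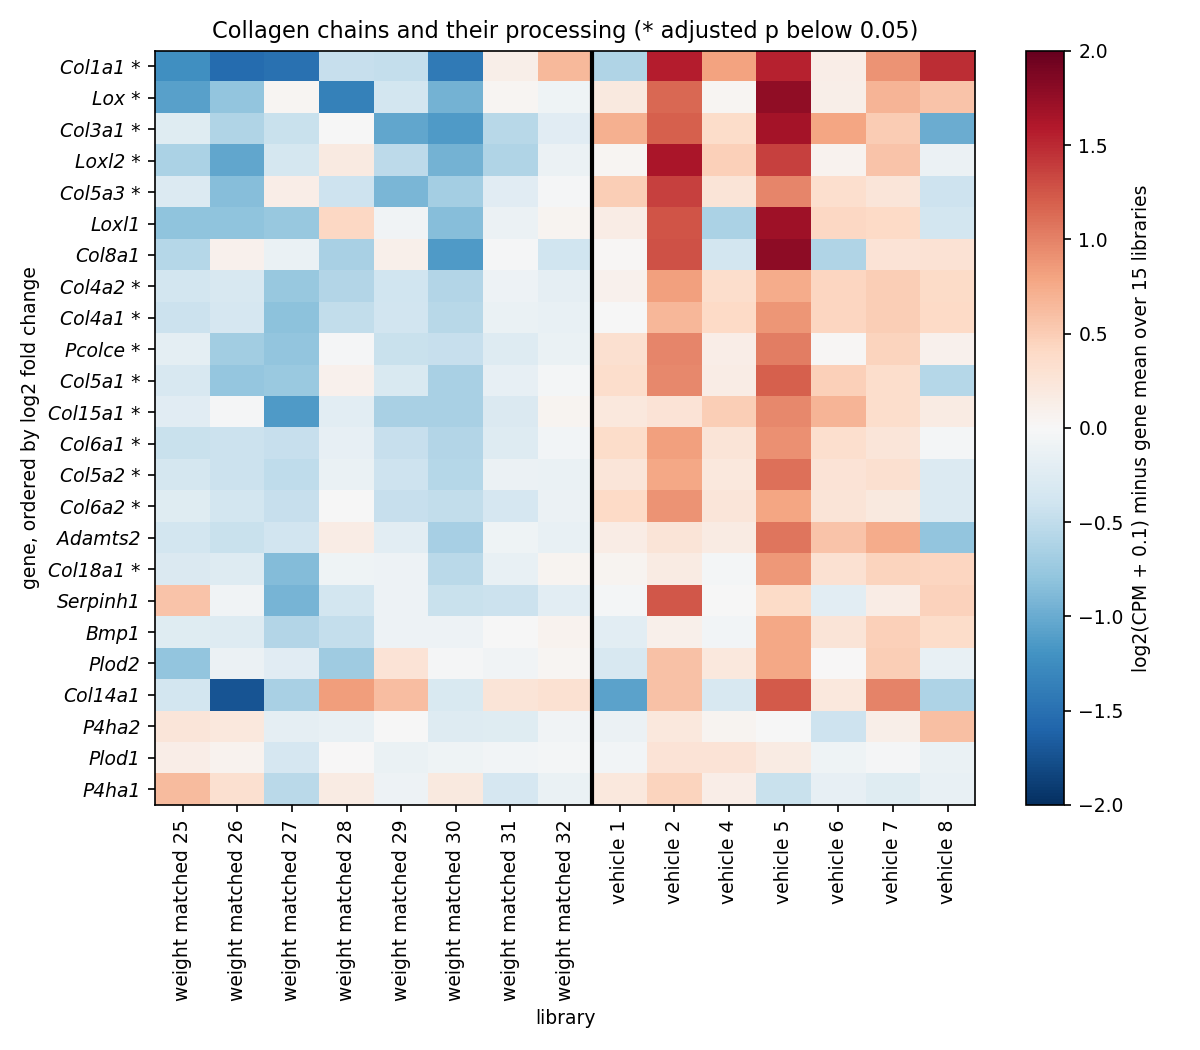
Log2(CPM + 0.1) of the 24 tested collagen-list genes in the 8 weight-matched (left) and 7 vehicle (right) libraries, each gene centred on its mean over these 15 libraries, with genes ordered by log2 fold change and stars on the 14 called genes. Vehicle libraries 2 and 5 are the darkest red columns, and Col3a1 in vehicle library 8, at 130 CPM, is coloured like the weight-matched libraries.

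Markers of matrix-making cells stood beside these values as follows. Of 11 tested fibroblast markers 2 fell, and these were Col1a1 and Col3a1, which the collagen list holds too. The list median was -0.39, and -0.11 without vehicle libraries 2 and 5. Of the 11, 10 had a log2 fold change below 0, and 4 had an unadjusted p below 0.05 (3 without those libraries). Among the others, log2 fold changes included -0.84 ± 0.35 for Lum, which encodes lumican, -0.45 ± 0.15 for Cd34, -0.39 ± 0.26 for Mfap5, -0.02 ± 0.17 for Dcn, which encodes decorin, and 0.23 ± 0.16 for Gsn, none of them called. The 12 fibroblast markers summed to 1011 to 1945 CPM in weight-matched libraries and to 1322 to 2502 CPM in vehicle libraries, with none at 0 throughout. These sums include Col1a1 and Col3a1, so they are not separate from the collagen values. Gsn and Dcn had medians of 809 and 187 CPM in weight-matched libraries, against 704 and 175 CPM in vehicle libraries. The 7 tendon cell markers summed to 93.3 to 318 CPM in weight-matched libraries and to 53.2 to 568 CPM in vehicle libraries, with a median log2 fold change of -0.66 (-0.44 without vehicle libraries 2 and 5) and no call (1 of 7 at an unadjusted p below 0.05, 0 by DESeq2 and 0 by limma-voom). Of 13 tested endothelial markers edgeR called 1, Aplnr, which fell, while DESeq2 called 2 and limma-voom 0. Of the 13, 9 had a log2 fold change below 0 and 4 above, with a median of -0.19 (-0.21 without vehicle libraries 2 and 5). In edgeR 6 had an unadjusted p below 0.05 (5 without those libraries). The endothelial list summed to 301 to 485 CPM in weight-matched libraries and to 344 to 621 CPM in vehicle libraries. One endothelial marker, Cldn5, was at 0 in all 15 libraries. The part of cell makeup in the collagen values was not tested.

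Of 25 other tested matrix genes 4 fell and none rose, with a median of -0.47. Without vehicle libraries 2 and 5, 1 of them (Sparc) was called lower, and the list median was -0.32. In edgeR 11 of the 25 had an unadjusted p below 0.05 with all libraries, and 6 without those 2. DESeq2 called 8 of the 25 and limma-voom 1. Lamc1, the laminin chain found in most laminins, had 89.2, 98.8 and 111 CPM in weight-matched libraries, against 107, 116 and 165 CPM in vehicle libraries. The groups overlapped slightly, and vehicle libraries 2 and 5 were the highest. Lamc1 had a log2 fold change of -0.35 ± 0.09 (adjusted p = 0.0362), and -0.20 without them (adjusted p = 0.239). Lama4, a laminin chain of vessel walls, fell by 0.47 ± 0.12 (adjusted p = 0.0459), and Hspg2, which encodes perlecan, by 0.35 ± 0.09 (adjusted p = 0.0474), on the log2 scale. Both missed the threshold without vehicle libraries 2 and 5 (Lama4 -0.42, adjusted p = 0.206; Hspg2 -0.32, adjusted p = 0.208). Among other laminin chains, Lama2, Lamb2 and Lamb1 had log2 fold changes of 0.06 ± 0.11, 0.05 ± 0.08 and -0.43 ± 0.13. None of these was called (adjusted p = 0.0709 for Lamb1).

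Of 14 tested matrix proteases and inhibitors, 2 fell, and none did without vehicle libraries 2 and 5. In that smaller fit 3 had an unadjusted p below 0.05, against 1548 of all 12597 genes. Timp1, an inhibitor of matrix metalloproteinases, had 0.891, 1.31 and 2.17 CPM in weight-matched libraries, against 1.11, 2.44 and 9.57 CPM in vehicle libraries. Vehicle libraries 2 and 5 held the highest values, at 9.57 and 5.37 CPM. Vehicle libraries 1, 6 and 7, at 4.485, 2.44 and 2.34 CPM, also lay above every weight-matched library, while vehicle libraries 4 and 8 overlapped that group. The log2 fold change of Timp1 was -1.38 ± 0.34 (adjusted p = 0.0328) and -0.70 without vehicle libraries 2 and 5 (adjusted p = 0.283).

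Genes that rose most included a carrier of basic amino acids, glutamine synthetase and a glucocorticoid-responsive gene. Slc7a2 (ENSRNOG00000011016), a carrier of arginine, lysine and ornithine, had 24.7, 39.1 and 45.8 CPM in weight-matched libraries, against 10.8, 18.6 and 22.6 CPM in vehicle libraries. Every weight-matched library lay above every vehicle library. The log2 fold change was 1.12 ± 0.19 (adjusted p = 0.00736), and 0.998 without vehicle libraries 2 and 5 (adjusted p = 0.0559). Glul (ENSRNOG00000049560), glutamine synthetase, had 1232, 1591 and 2444 CPM in weight-matched libraries, against 613, 1026 and 1270 CPM in vehicle libraries. Only the lowest weight-matched library lay below the highest vehicle library. Glul changed by 0.79 ± 0.14 (adjusted p = 0.00975) and by as much, 0.79, without vehicle libraries 2 and 5 (adjusted p = 0.0457). These were 2 calls among 27 genes of amino acid transport and use, whose median was 0.09. Without vehicle libraries 2 and 5 the list had 1 call, Glul, and its median turned to -0.03. Carriers for glutamine and branched-chain amino acids were not called, among them Slc38a2 (0.22 ± 0.10), Slc7a5 (-0.94 ± 0.40) and Slc7a8 (0.19 ± 0.18, log2 fold changes). Slc38a3, also not called, had 63.5, 70.2 and 108 CPM in weight-matched libraries, against 25.6, 38.3 and 92.4 CPM in vehicle libraries.

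Fkbp5 (ENSRNOG00000022523), a co-chaperone of the glucocorticoid receptor that the receptor itself induces, had 25.3, 44.4 and 90.1 CPM in weight-matched libraries, against 14.9, 20.1 and 27.4 CPM in vehicle libraries. The weight-matched values spread widely, and the lowest of them, in library 32, lay below the highest vehicle value, in library 4. Its log2 fold change of 1.39 ± 0.28 (adjusted p = 0.0171) was the largest rise among called genes of at least 1 CPM, and it was 1.33 without vehicle libraries 2 and 5 (adjusted p = 0.107). Of 14 tested glucocorticoid-responsive genes, Glul and Fkbp5 rose and none fell, with a median of 0.23; without vehicle libraries 2 and 5 Glul rose and the median was 0.24. Over the list, 10 of the 14 had a log2 fold change above 0 and 4 below. Other members of that list were not called, including Zbtb16 (0.57 ± 0.17, adjusted p = 0.065), Tsc22d3 (0.31 ± 0.12, adjusted p = 0.151), Klf9 (0.21 ± 0.08, adjusted p = 0.16) and Sgk1 (0.05 ± 0.18, adjusted p = 0.915). Two-way values were seen among them: Mt2A and Cdkn1a had medians of 0.72 and 39.8 CPM in weight-matched libraries, against 1.83 and 56.5 CPM in vehicle libraries.

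Slc25a25 and Nr4a1 were the called genes among 19 genes of mitochondrial uncoupling and fuel choice, whose median was 0.24. With vehicle libraries 2 and 5 left out, none of the 19 passed and the median was 0.11. In that fit 4 of the 19 had an unadjusted p below 0.05, against 1548 of all 12597 genes. Slc25a25 encodes a calcium-regulated carrier of ATP-Mg and phosphate in the inner mitochondrial membrane, and Nr4a1 encodes an orphan nuclear receptor known to rise with adrenergic signals and exercise in muscle. Their promoter windows are shown because both genes are known cases of induction by hormone or nerve signals, and cAMP response elements are the letters bound by factors of that pathway. In capitals are the full element TGACGTCA in Slc25a25 (chr3:36116532-36116831, minus strand) and the shorter element TGACG, here on the other strand as CGTCA, in Nr4a1 (chr7:134259888-134260187, plus strand), both from RefSeq on GRCr8.
Slc25a25: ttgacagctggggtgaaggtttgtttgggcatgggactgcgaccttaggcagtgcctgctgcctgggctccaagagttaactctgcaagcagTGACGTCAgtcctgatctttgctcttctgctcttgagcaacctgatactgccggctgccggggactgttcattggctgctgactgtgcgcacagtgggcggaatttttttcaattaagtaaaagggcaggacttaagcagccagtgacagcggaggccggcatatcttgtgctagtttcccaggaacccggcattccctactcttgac
Nr4a1: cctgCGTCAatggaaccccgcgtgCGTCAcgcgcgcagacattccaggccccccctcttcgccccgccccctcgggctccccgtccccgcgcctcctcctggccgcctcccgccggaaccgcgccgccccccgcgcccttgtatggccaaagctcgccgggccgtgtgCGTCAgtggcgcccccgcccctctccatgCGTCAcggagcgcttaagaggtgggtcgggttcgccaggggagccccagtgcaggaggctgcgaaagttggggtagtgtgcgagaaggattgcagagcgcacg
The Slc25a25 element begins 158 bases before the start and holds the shorter one on both strands, and Nr4a1 has 4 shorter and no full elements. Of 27457 promoter windows 1.91% held the full element and 22% at least 1 shorter element. The windows were chosen after the values were seen.

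Slc25a25 had 89.9, 118 and 188 CPM in weight-matched libraries, against 24.0, 49.9 and 107 CPM in vehicle libraries. The groups overlapped through vehicle library 4, at 107 CPM, and vehicle library 5 was the lowest. The log2 fold change of Slc25a25 was 1.11 ± 0.26 (adjusted p = 0.0314), and 0.998 without vehicle libraries 2 and 5 (adjusted p = 0.118). Nr4a1 had 230, 298 and 428 CPM in weight-matched libraries, against 136, 170 and 312 CPM in vehicle libraries, a change of 0.73 ± 0.17 (adjusted p = 0.0314) and of 0.59 without libraries 2 and 5 (adjusted p = 0.184). Klf10, a zinc finger factor, averaged 22.02 ± 6.2 CPM in weight-matched muscle and 12.7 ± 1.7 CPM in vehicle muscle, a change of 0.79 ± 0.19 (adjusted p = 0.0351). Without libraries 2 and 5 the Klf10 change was 0.85 (adjusted p = 0.118).

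Ucp3, the uncoupling protein of muscle mitochondria, had 21.4, 78.6 and 150 CPM in weight-matched libraries, against 20.2, 41.7 and 66.2 CPM in vehicle libraries. The weight-matched range covered nearly all of the vehicle range, and its log2 fold change of 0.91 ± 0.36 did not pass (adjusted p = 0.159). Pdk4, the kinase that shuts off pyruvate dehydrogenase in fasting, had 193, 441 and 1108 CPM in weight-matched libraries, against 166, 289 and 492 CPM in vehicle libraries. It did not pass either (0.84 ± 0.36, adjusted p = 0.208). Ucp2 averaged 8.92 ± 2.71 CPM in weight-matched muscle and 13.1 ± 9.0 CPM in vehicle muscle (-0.55 ± 0.31, adjusted p = 0.331), where vehicle library 5 held 31.04 CPM. Its log2 fold change was 0.0036 without vehicle libraries 2 and 5.

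In CagriSema muscle, Slc25a25 averaged 40.8 ± 11.6 CPM, Ucp3 23.4 ± 10.7 CPM and Klf10 11.6 ± 4.1 CPM (SD, n = 8). Between CagriSema and weight-matched muscle, which shares the weight-matched libraries with the comparison above, 16 of 12471 genes (0.128%) were called. Slc25a25 was lower with CagriSema by 1.65 ± 0.25 on the log2 scale (adjusted p = 0.00986), Ucp3 by 1.78 ± 0.35 (adjusted p = 0.0464) and Klf10 by 0.92 ± 0.19 (adjusted p = 0.0485). Against vehicle, the CagriSema log2 fold changes were -0.54 ± 0.26 for Slc25a25, -0.87 ± 0.36 for Ucp3 and -0.12 ± 0.20 for Klf10, none past the test. Slc7a2, Glul and Fkbp5 averaged 23.4, 1272 and 35.9 CPM in CagriSema muscle, which lay between the means of the other groups.

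**Figure D4:**
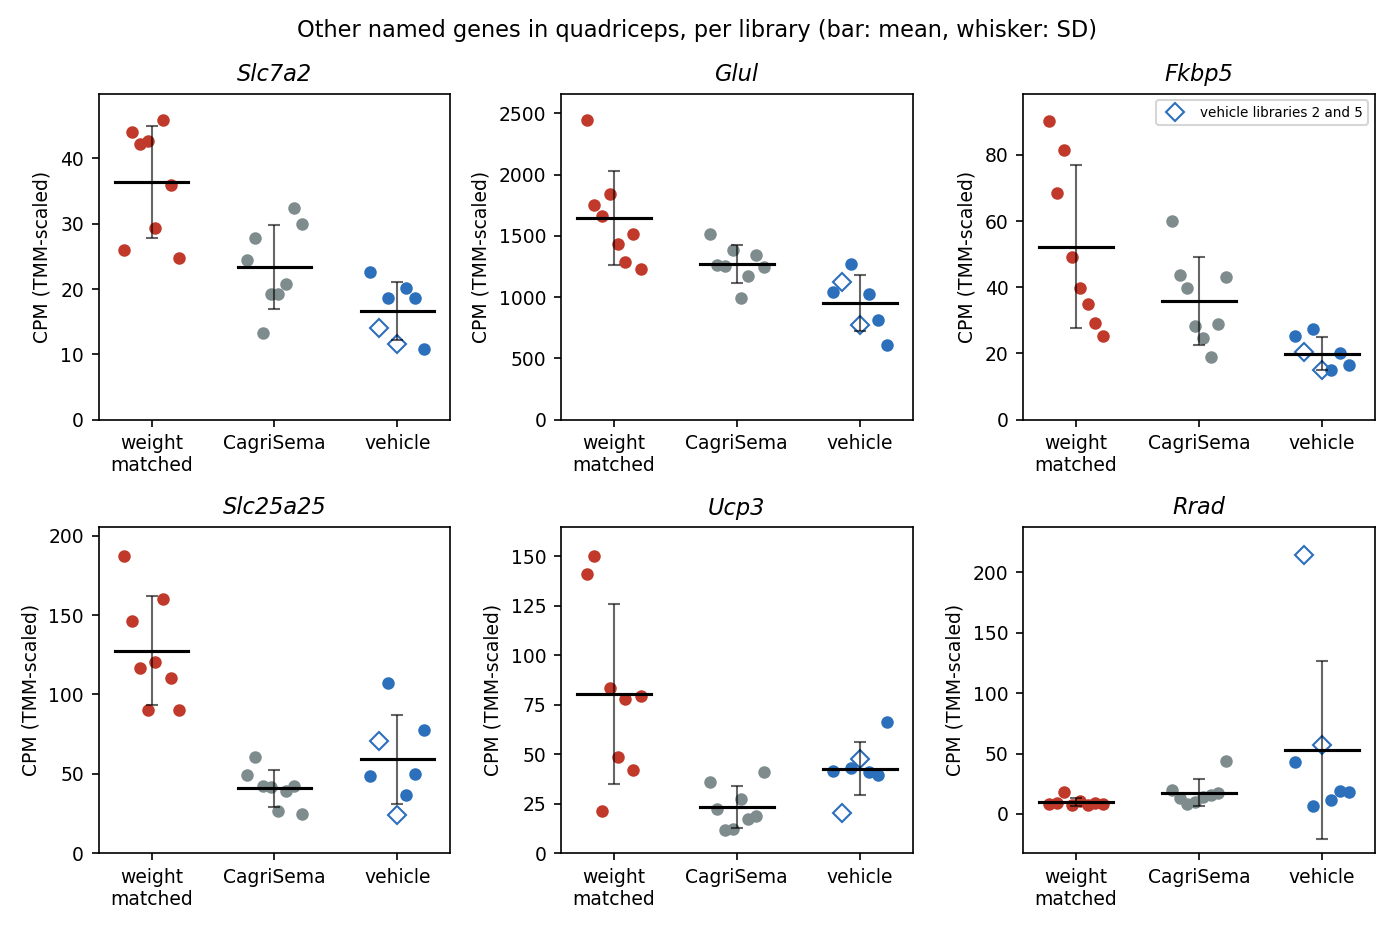
TMM-scaled CPM of 6 other genes in each quadriceps library of the weight-matched (left), CagriSema (middle) and vehicle (right) groups; points are libraries, horizontal lines are means, whiskers are SD and open diamonds are vehicle libraries 2 and 5. Slc7a2 is higher in every weight-matched library than in any vehicle library, Slc25a25 and Ucp3 have their lowest means with CagriSema, and for Rrad vehicle library 2 lies alone at 214 CPM.

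Genes of glycolysis and glycogen use were higher in weight-matched muscle with all libraries. Of 27 tested, 9 rose and none fell, with a median of 0.37. For 2 of the 9 the groups did not overlap, against 22 higher among all 12471 genes (0.176%). Without vehicle libraries 2 and 5 none passed, though 13 had an unadjusted p below 0.05, and the median was 0.25. With all libraries, DESeq2 called 14 of the list and limma-voom 2. Pfkm, the muscle phosphofructokinase, had 4351, 4671 and 5056 CPM in weight-matched libraries, against 2342, 3454 and 4005 CPM in vehicle libraries. All weight-matched libraries lay above all vehicle libraries, and vehicle library 5 was lowest. Pfkm had a log2 fold change of 0.45 ± 0.09 (adjusted p = 0.0149), and 0.33 without libraries 2 and 5 (adjusted p = 0.0642). Gapdh, a glycolytic dehydrogenase with many processed copies in the genome that can share reads, averaged 6498 ± 740 CPM in weight-matched muscle and 4642 ± 741 CPM in vehicle muscle (0.49 ± 0.10, adjusted p = 0.0129). Without libraries 2 and 5 it stood at 0.42 (adjusted p = 0.067).

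The other 7 called members were Eno3, Pkm, Gpi and Pgk1 of glycolysis, Fbp2 of the reverse step, and Pygm and Ppp1r3a of glycogen. Fbp2, the muscle fructose bisphosphatase, had 82.1, 101 and 142 CPM in weight-matched libraries, against 36.2, 53.9 and 83.1 CPM in vehicle libraries, the largest change of the list (0.86 ± 0.21, adjusted p = 0.0319). Its vehicle libraries 2 and 5 were the lowest of all, and without them the change was 0.68 (adjusted p = 0.183). Pygm, the muscle glycogen phosphorylase, changed by 0.48 ± 0.13 (adjusted p = 0.0499) and Ppp1r3a, which tethers protein phosphatase to glycogen, by 0.42 ± 0.10 (adjusted p = 0.0276), and both missed the threshold without those libraries (0.38 and 0.29). Hk1, a hexokinase, and Ldhb, the lactate dehydrogenase subunit of oxidative tissue, had log2 fold changes of -0.52 ± 0.16 (adjusted p = 0.083) and -0.69 ± 0.44 (adjusted p = 0.414) and were not called. Slc2a4, the insulin-regulated glucose carrier, stood at 0.26 ± 0.11 (adjusted p = 0.189).

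Contractile genes of fast fibres had values in the same direction. All 12 tested had a log2 fold change above 0, with a median of 0.40, and of 0.38 without vehicle libraries 2 and 5. In edgeR all 12 had an unadjusted p below 0.05, and 11 did without those libraries. With all libraries, edgeR called 2 of the 12, DESeq2 4 and limma-voom 0. The 2 called by edgeR were Mylk2, the myosin light chain kinase of skeletal muscle (0.54 ± 0.13, adjusted p = 0.0343), and Tnni2, fast troponin I (0.34 ± 0.09, adjusted p = 0.0457). Neither passed without vehicle libraries 2 and 5 (0.55, adjusted p = 0.121 and 0.31, adjusted p = 0.191). Myh4, the fast IIb myosin heavy chain, had 70980, 89040 and 109500 CPM in weight-matched libraries, against 49930, 80880 and 87940 CPM in vehicle libraries. The groups overlapped and the gene was not called (0.33 ± 0.13, adjusted p = 0.155). Reads of near-identical myosin genes may be split between them.

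None of the 13 slow-fibre genes passed edgeR's test, with or without vehicle libraries 2 and 5. At an unadjusted p below 0.05 there were 3 and 0, and DESeq2 called 2 and limma-voom 0 with all libraries. All 13 had a log2 fold change below 0, with medians of -0.99 and -1.05. Myh7, the slow myosin heavy chain, had 171, 1002 and 3307 CPM in weight-matched libraries, against 301, 1193 and 6794 CPM in vehicle libraries. The groups overlapped over most of their ranges, and its log2 fold change was -0.97 ± 0.61 (adjusted p = 0.402). Summed slow-fibre genes took 540 to 6849 CPM in weight-matched libraries and 1278 to 14130 CPM in vehicle libraries. Slow-fibre levels thus varied widely within each group, and the part of fibre makeup in the glycolytic and fast-fibre values was not tested.

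Several of the largest falls among called genes rested on vehicle libraries 2 and 5, or on library 2 most. Rrad, a small GTPase that restrains calcium channels, had 7.28, 8.71 and 18.3 CPM in weight-matched libraries, against 6.86, 18.7 and 214 CPM in vehicle libraries. Vehicle library 2 held 214 CPM and library 5 held 57.1 CPM, while the other 5 ran from a low of 6.86 up to 42.6 CPM and overlapped the weight-matched group. Its log2 fold change was -2.43 ± 0.58 (adjusted p = 0.0357), and -0.99 without them (adjusted p = 0.323). Lmcd1, a LIM protein of muscle, and Hspb7, a small heat shock protein of muscle, held 1629 and 3226 CPM in vehicle library 2, which were 8.62 and 5.84 times the median of the 5 other vehicle libraries. In vehicle library 5 they stood at 1.34 and 1.94 times that median. For Lmcd1 vehicle library 5, at 254 CPM, lay below vehicle library 8, at 347 CPM. The log2 fold changes of Lmcd1 and Hspb7 were -1.80 ± 0.48 and -1.58 ± 0.39 (adjusted p = 0.0498 and 0.0395), and -0.72 and -0.70 without libraries 2 and 5 (adjusted p = 0.328 and 0.286).

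Actc1, the cardiac actin that skeletal muscle makes before birth and in repair, had 6.88, 10.1 and 20.7 CPM in weight-matched libraries, against 14.5, 19.4 and 122 CPM in vehicle libraries. Libraries 5 and 2 held 122 and 74.4 CPM, and its log2 fold change was -1.92 ± 0.48 with them (adjusted p = 0.0395) and -0.82 without (adjusted p = 0.364). Ptprn, a membrane protein of secretory granules, changed by -2.31 ± 0.59 (adjusted p = 0.042), and by -0.71 without libraries 2 and 5 (adjusted p = 0.462). P2rx5, an ATP-gated channel, changed by -1.47 ± 0.39 (adjusted p = 0.0474) and by -0.42 without them (adjusted p = 0.229). Values of whole lists moved with these libraries: 19 denervation, embryonic and regeneration genes summed to 532 to 813 CPM in weight-matched libraries, against 3573 CPM in vehicle library 2 and 1321 CPM in vehicle library 5. No gene of that list was called by edgeR (10 of 18 at an unadjusted p below 0.05, 5 by DESeq2 and 0 by limma-voom), and its median of -0.49 was -0.12 without libraries 2 and 5. The red blood cell markers summed to 57.6 to 283 CPM in weight-matched libraries, against 772 CPM in vehicle library 2. The part of red cells in its values was not tested.

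Several genes outside these groups held more firmly. Smyd2, a lysine methyltransferase, had 193, 220 and 250 CPM in weight-matched libraries, against 135, 158 and 185 CPM in vehicle libraries. The groups did not overlap, and its log2 fold change was 0.46 ± 0.07 (adjusted p = 0.00252) and 0.39 without vehicle libraries 2 and 5 (adjusted p = 0.0143). Cpeb4, which controls translation through the poly(A) tail, had 33.01, 40.4 and 44.1 CPM in weight-matched libraries, against 25.1, 27.7 and 32.3 CPM in vehicle libraries. It rose by 0.46 ± 0.08 (adjusted p = 0.00736), and by 0.50 without those libraries (adjusted p = 0.0135). Smg5, a factor of nonsense-mediated mRNA decay, had 55.8, 59.2 and 68.6 CPM in weight-matched libraries, against 70.4, 71.5 and 73.7 CPM in vehicle libraries. The vehicle values were tight and lay above every weight-matched library, with a small log2 fold change of -0.27 ± 0.05 (adjusted p = 0.00736), and -0.26 without vehicle libraries 2 and 5 (adjusted p = 0.0392).

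Ank3, which encodes the membrane anchor ankyrin G, and Zfp503, a transcriptional repressor, rose by 0.32 ± 0.06 and 0.82 ± 0.14 (adjusted p = 0.00736 each). Both also passed without vehicle libraries 2 and 5 (0.27, adjusted p = 0.0459 and 0.68, adjusted p = 0.0372). The remaining genes called in both fits were named after their values were seen. Of these, Tmem52, Atp8a1, a phospholipid flippase, and Rnf150, a RING finger protein, rose by 0.42 ± 0.07, 0.52 ± 0.09 and 0.52 ± 0.10, and Bloc1s5, Cmss1, Tead4, Pea15 and Plxnd1 fell. Tead4, a DNA-binding partner of the growth regulator YAP, had 28.8, 32.3 and 36.6 CPM in weight-matched libraries, against 37.5, 48.6 and 95.3 CPM in vehicle libraries. Its groups did not overlap, and it changed by -0.77 ± 0.15 (adjusted p = 0.0107), and by -0.50 without vehicle libraries 2 and 5 (adjusted p = 0.0435). Plxnd1, a semaphorin receptor of vessels, changed by -0.57 ± 0.12 (adjusted p = 0.0147), and by -0.59 without them (adjusted p = 0.0457).

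The rule for named genes also took Foxp3, the factor of regulatory T cells, at 2.73 ± 0.75 CPM in weight-matched muscle and 1.41 ± 0.67 CPM in vehicle muscle (0.94 ± 0.22, adjusted p = 0.0308). It did not pass without vehicle libraries 2 and 5 (0.78, adjusted p = 0.168). Of 12 lymphocyte markers 1, Cd4, passed the filter on low counts, and it stood at -0.27 ± 0.32. The rule took as well Cep85l, a centrosomal gene (0.93 ± 0.22, adjusted p = 0.0314), and Zfp324, a zinc finger gene (0.74 ± 0.20, adjusted p = 0.0482), which missed the threshold without vehicle libraries 2 and 5 (0.81, adjusted p = 0.173 and 0.69, adjusted p = 0.199).

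In lipid handling, Pnpla3, a lipid-droplet gene that feeding switches on in liver and fat, was the called gene among 22 genes of lipid synthesis and storage. It was scarce, with 0.28, 0.54 and 0.813 CPM in weight-matched libraries, against 0.92, 1.10 and 1.62 CPM in vehicle libraries. The groups did not overlap, and its log2 fold change was -1.10 ± 0.23 (adjusted p = 0.0149), and -1.21 without vehicle libraries 2 and 5 (adjusted p = 0.0457). The list median was -0.21, and -0.19 without them. Of 26 genes of fatty acid uptake and oxidation none passed, with a median of -0.05 and of -0.20 without vehicle libraries 2 and 5. None had an unadjusted p below 0.05, and DESeq2 and limma-voom called 0.

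Among 18 core clock genes, Nr1d1 and Ciart, both repressors in the clock's feedback loops, fell. Nr1d1 had 36.5, 55.8 and 71.6 CPM in weight-matched libraries, against 68.3, 98.4 and 111 CPM in vehicle libraries, with overlap at the edges. Its log2 fold change was -0.78 ± 0.17 (adjusted p = 0.0191), and also -0.78 without vehicle libraries 2 and 5 (adjusted p = 0.0886). Ciart changed by -0.66 ± 0.17 (adjusted p = 0.036) and by -0.74 without them (adjusted p = 0.067), and Dbp, a clock output gene, stood just outside the threshold (-0.46 ± 0.13, adjusted p = 0.0533). Bmal1, Clock and the Per genes were not called, and the labels give no hour of tissue collection.

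Il15, a cytokine made by muscle, rose among 20 myokine genes, with 21.4, 25.7 and 32.7 CPM in weight-matched libraries, against 13.6, 18.4 and 22.7 CPM in vehicle libraries. Its log2 fold change was 0.58 ± 0.10 (adjusted p = 0.00736), and 0.49 without vehicle libraries 2 and 5 (adjusted p = 0.0559). Pde4d, a phosphodiesterase that degrades cAMP, rose by 0.48 ± 0.10 (adjusted p = 0.0129), and its groups did not overlap. Pik3r1, the regulatory subunit of phosphoinositide 3-kinase, was the called gene of 23 in insulin signalling (0.46 ± 0.11, adjusted p = 0.0362), while Insr, Irs1 and Akt1 were not called. Sesn1, a sestrin that restrains mTORC1, was the called gene of 24 in atrophy and autophagy (0.33 ± 0.08, adjusted p = 0.0362). Pde4d, Pik3r1 and Sesn1 missed the threshold without vehicle libraries 2 and 5 (0.37, 0.35 and 0.24, adjusted p = 0.0739, 0.192 and 0.199).

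Of the 24 atrophy and autophagy genes, 8 had an unadjusted p below 0.05 in edgeR, and 6 did without vehicle libraries 2 and 5. Over all genes these counts were 2392 of 12471 and 1548 of 12597. DESeq2 called 3 of the 24 and limma-voom 0. The ubiquitin ligases that mark muscle wasting were not called, and their groups overlapped. Fbxo32 (atrogin-1) had 97.8, 147 and 227 CPM in weight-matched libraries, against 77.0, 147 and 261 CPM in vehicle libraries, with a log2 fold change of -0.03 ± 0.20 (adjusted p = 0.959). Trim63 (MuRF1) had 232, 282 and 368 CPM in weight-matched libraries, against 187, 272 and 339 CPM in vehicle libraries (0.18 ± 0.12, adjusted p = 0.436). Mstn, which encodes myostatin, the inhibitor of muscle growth, averaged 15.8 ± 4.8 CPM in weight-matched muscle and 9.45 ± 4.42 CPM in vehicle muscle (0.73 ± 0.29, adjusted p = 0.174). Sln, which encodes sarcolipin, a regulator of the calcium pump, averaged 6.20 ± 2.24 CPM in weight-matched muscle and 14.3 ± 11.2 CPM in vehicle muscle (-1.21 ± 0.36, adjusted p = 0.0709), and stood at -0.64 without vehicle libraries 2 and 5.

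Among receptors, Aplnr, the receptor of apelin and an endothelial gene, had 2.53, 5.95 and 7.12 CPM in weight-matched libraries, against 6.61, 8.06 and 12.1 CPM in vehicle libraries. The groups overlapped slightly. It changed by -0.66 ± 0.18 (adjusted p = 0.0482), and by -0.56 without vehicle libraries 2 and 5 (adjusted p = 0.217). In CagriSema muscle Aplnr averaged 9.73 ± 1.96 CPM, higher than in weight-matched muscle by 0.83 ± 0.17 (adjusted p = 0.0485). Glp1r, the receptor that semaglutide targets, had 1 count in all weight-matched libraries together and 0 in vehicle libraries. Calcr, the calcitonin receptor that forms amylin receptors with RAMP proteins, averaged 0.716 ± 0.336 CPM in weight-matched muscle and 0.681 ± 0.255 CPM in vehicle muscle (0.06 ± 0.31). Ramp1 and Ramp2 had log2 fold changes of -0.43 ± 0.27 and -0.08 ± 0.15, and Ramp3, with 23 counts in weight-matched and 14 in vehicle libraries, was not tested. Cspg4, a pericyte proteoglycan, and Ckb, the brain-type creatine kinase, fell (-0.60 ± 0.16, adjusted p = 0.0474 and -0.54 ± 0.14, adjusted p = 0.0478), but not without vehicle libraries 2 and 5 (-0.43, adjusted p = 0.271 and -0.34, adjusted p = 0.312).

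No call was made by edgeR, DESeq2 or limma-voom among genes of mitochondrial respiration or the proteasome. Nuclear genes of oxidative phosphorylation (34 tested) had a median of 0.02, the tricarboxylic acid cycle (17) of 0.03 and the proteasome (33) of 0.03, with 0, 0 and 1 genes at an unadjusted p below 0.05. With vehicle libraries 2 and 5 left out these medians were -0.08, -0.09 and 0.04, so the sign turned for the first pair, and 0, 0 and 2 genes had an unadjusted p below 0.05. The 13 mitochondrially encoded genes had a median of -0.08, and of -0.22 without those libraries, where 3 had an unadjusted p below 0.05. They summed to 114600 to 165000 CPM in weight-matched libraries and to 106200 to 230900 CPM in vehicle libraries, with the upper end set by vehicle library 8. Nor did edgeR call any of 20 immediate early genes, 19 endoplasmic reticulum chaperones, 12 genes of the amino acid stress response, 17 of calcium handling or 11 of iron handling. At an unadjusted p below 0.05 these lists held 2, 5, 2, 5 and 2 genes, against 2392 of 12471 over all genes. DESeq2 called 1, 3, 0, 1 and 1 genes of these lists, and limma-voom called 0 in each. Markers of macrophages (12 tested), satellite cells (8), adipocytes (8) and Schwann cells (7) had no call by any of the 3 tools, and 1, a macrophage gene, had an unadjusted p below 0.05. The macrophage median was -0.16, and 0.19 without vehicle libraries 2 and 5.

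**Figure D5:**
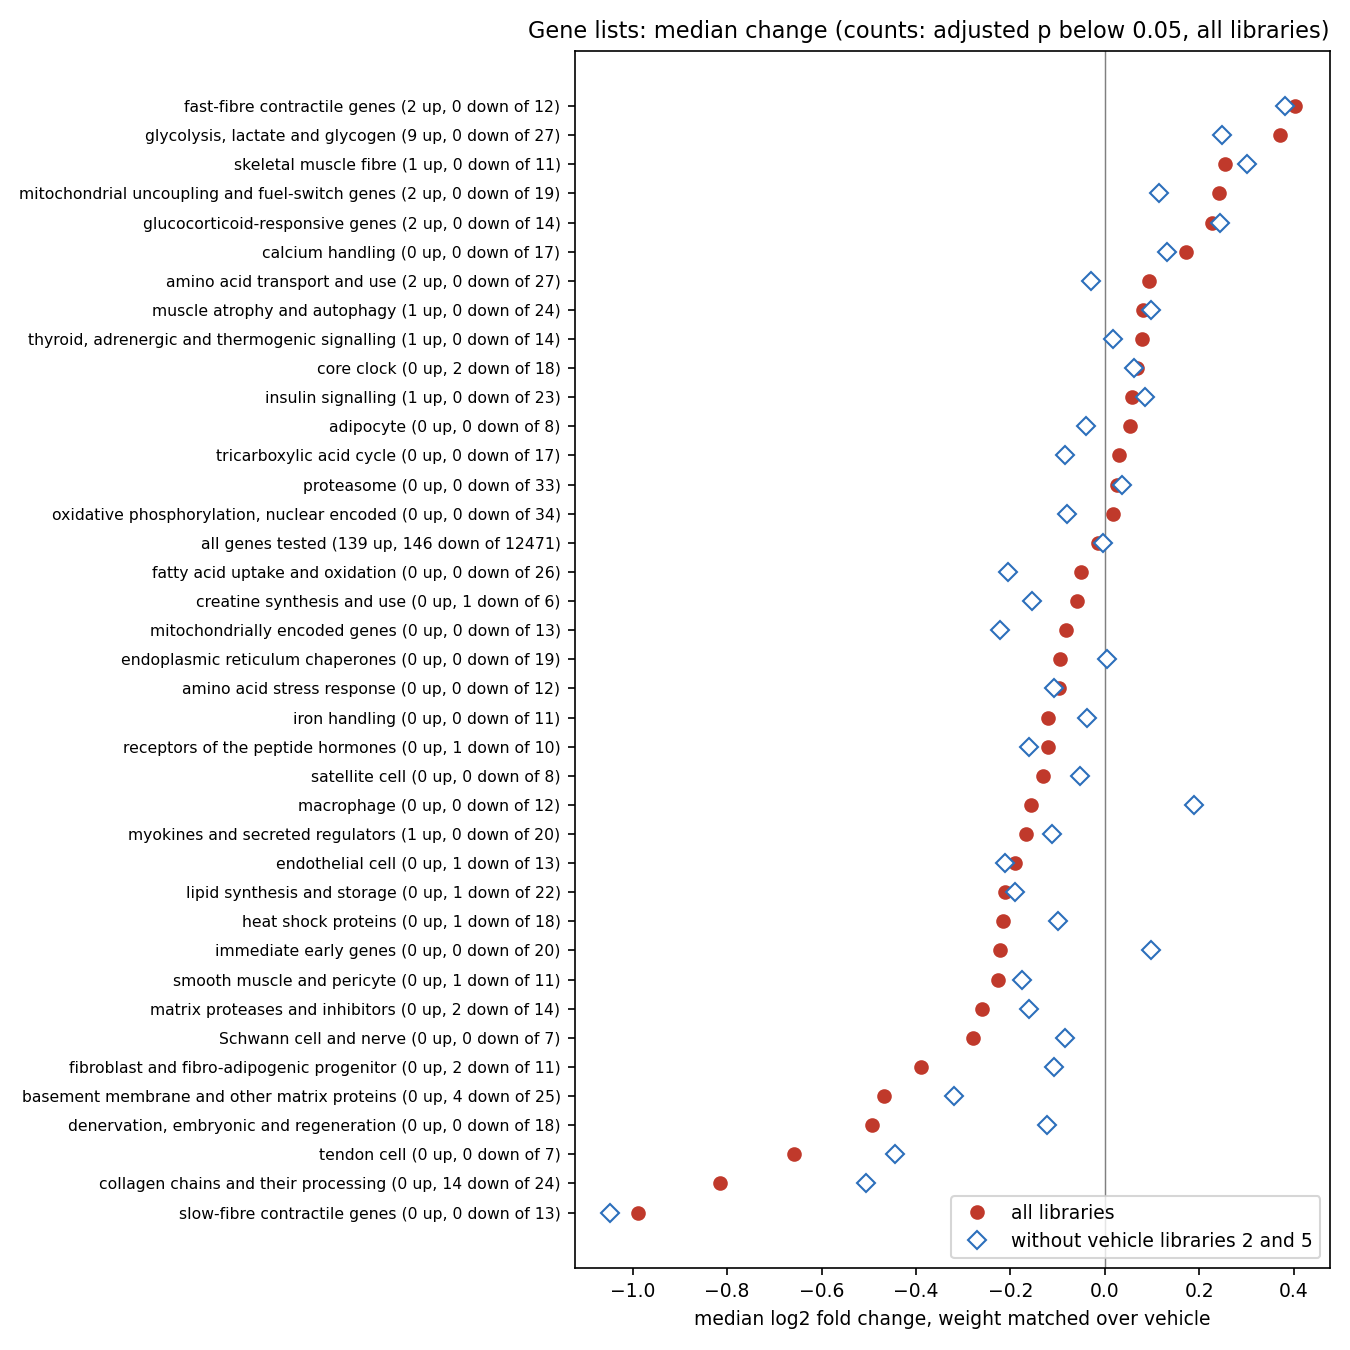
Median log2 fold change, weight-matched over vehicle, of each gene list with at least 5 tested genes and of all genes tested, with all libraries (filled circles) and without vehicle libraries 2 and 5 (open diamonds); the labels give calls with all libraries. The collagen list, with a median of -0.82 and 14 genes lower, and the glycolysis list, with a median of 0.37 and 9 genes higher, hold the most calls, while the slow-fibre list has the lowest median, -0.99, and no call.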

How the data were processed

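Total RNA of quadriceps was purified on columns and made into libraries with a system that adds unique molecular identifiers, per the labels' protocols. The deposited table holds whole-number counts per gene for 32552 genes, not normalized. The submitters' processing notes name fastp 0.23.1 and STAR 2.5.2b. The genome build, annotation, counting program, strand setting and use of molecular identifiers were not given in these sources, so reads of overlapping, antisense or near-identical genes cannot be told apart. In the table, 1 column of counts matched no listed sample and was not used. A floor of 3 counts covers counting error only.

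In R 4.3.3, edgeR 4.0.16 fitted all 23 quadriceps libraries in 3 groups that share 1 estimate of the spread (filterByExpr, TMM, robust quasi-likelihood F test, Benjamini-Hochberg over 12471 genes, threshold 0.05). CPM values are TMM-scaled and not per length. SE is the log2 fold change divided by the root of F. No pair of libraries were near-identical over 253 pairs (lowest chi-square per degree of freedom 5.47). The procedure was tested on simulated data. Alternatives used DESeq2 1.42.0, limma 3.58.1 (voom with quality weights), other scalings and filters, and libraries left out.

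Members and lists were chosen with earlier results of these data known. Named genes are called genes with a proper symbol and at least 1 CPM that had the 10 largest increases, 10 largest decreases and 10 lowest p, up to 3 called genes a list with the lowest p, the lowest-p gene of a list with no call, and a fixed set of receptors, uncoupling, wasting and myosin genes. Of 700 list genes 667 were matched by symbol and 13 by RefSeq name, 4 of them to more than 1 row, of which the row with most counts was taken. A further 20 were not analysed here, Myh1 and Myh2 among them. Promoters were matched for 57 of 79 named genes. One gene that the rule took is not reported here.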

Additional observations from a re-analysis of the deposited data

Results flagged for a closer look

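Values of named genes were examined in each group for a library far from the rest by Dixon's test, which flags about 1 in 20 groups by chance; 15 of 160 groups were flagged. Vehicle library 2 stood apart most often. It held 214 CPM of Rrad, where the next vehicle library held 57.1, 3226 CPM of Hspb7 (next 1073), 1629 CPM of Lmcd1 (next 347), 77.6 CPM of P2rx5 (next 22.1) and 20.5 CPM of Ptprn (next 7.001). It also held 639 CPM of Ankrd2 (next 207), a stretch-responsive gene of slow fibres, 291 CPM of Hbb (next 83.8), a haemoglobin chain, and 4.46 CPM of Mthfd2 (next 1.91), a mitochondrial folate enzyme. Ciart was lowest in that library, at 7.48 CPM, where the next vehicle library held 11.03.

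Vehicle library 5 held 38.3 CPM of Sln (next 15.9) and 31.04 CPM of Ucp2 (next 16.1). In the weight-matched group, library 27 held 18.3 CPM of Rrad (next 10.8) and 2.48 CPM of Ptprn (next 1.33), library 29 held 20.7 CPM of Actc1 (next 13.2) and library 32 held 110 CPM of Hbb (next 57.0). The cause of these values was not tested.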

How the results depend on the processing

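With all libraries edgeR called 285 genes (139 higher, 146 lower). Over all genes, DESeq2 called 698 (344 and 354), limma-voom with quality weights 53 (25 and 28), a fit with no filter on low counts 131 (63 and 68), and a fit of the 2 groups alone, without CagriSema libraries, 7 (3 and 4). Without vehicle libraries 2 and 5 there were 19 (8 and 11), and without 2, 5 and 8, a choice made after seeing the data, 5 (1 and 4): Col4a1, Col4a2, Sparc, Bloc1s5 and Irf2bpl. Leaving out 1 library gave 46 (without vehicle library 5) to 645 (without vehicle library 1) genes, 21 to 320 higher and 25 to 325 lower. Other scalings, a floor of 1 CPM in 7 libraries, non-robust estimation and removal of mitochondrial genes stayed within 1.5 times the count (277 to 308). Over all settings the median log2 fold change of all genes lay between -0.02 and -0.001. Of the 285, DESeq2 also called 280, voom 53 and the fit of the 2 groups alone 7. The cause of these differences was not tested. The reduced fits also held fewer samples, and the part of sample number in the counts was not tested.

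Named genes that changed sign were all uncalled. Ucp2 stood at 0.0036 without vehicle libraries 2 and 5. Ramp2 stood at 0.0453 without them, at 0.0822 without 2, 5 and 8 and at 0.026 without vehicle library 5, with -0.182 to 0.026 over the fits that left out 1 library. Calcr stood at -0.0711 by voom, at -0.14 without 2 and 5, at -0.15 without 2, 5 and 8, and at -0.125 to 0.17 over the fits that left out 1 library, 5 of them below 0. Fbxo32 stood at -0.15 to 0.135 over those fits, 4 of them above 0. No paired analysis was possible because the weight-matched and vehicle libraries share no replicate numbers. Values of genes under 1 CPM, such as Pnpla3 and Calcr, rest on few counts.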
